A study of Mus musculus with 3 samples.

Results

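The 10 genes described here encode the receptors and ligands of 4 guidance systems that endothelial cells (ECs) share with growing axons, namely Plxnd1, Sema3e and Sema3g of the semaphorin-plexin system, Unc5b and Ntn4 of the netrin system, Robo1, Robo4 and Slit2 of the Slit-Robo system, and Efnb2 and Ephb4 of the ephrin-Eph system. They were taken by gene symbol, and all 10 are among the 33696 genes of each table. The question was which retinal cells and EC subtypes carried them, and how their levels differed in ECs lacking parts of Norrin/β-catenin signalling, the pathway that drives retinal vessel growth. The data were 3 droplet libraries (10x 3′ single-cell RNA-seq) of mouse retina at postnatal day 6, 1 each from WT, Tspan12 KO and Ctnnb1 cKO mice, enriched with CD31 and CD11b beads, which take ECs and myeloid cells. Tspan12 KO mice lack the Norrin co-receptor component throughout the body. Ctnnb1 cKO mice carried floxed Ctnnb1 (β-catenin) and Pdgfb-iCreER, a recombinase driven by Pdgfb sequences that acts in ECs and was induced with tamoxifen after birth. All mice were of C57BL/6 background, and retinas of several mice were pooled in each library. Per the study's methods, the WT mice came from other litters than the knockout mice. Genotype, litter and library therefore cannot be told apart, and no p-value was computed.

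Guidance ligands steer cells by attraction or repulsion through receptors on the cell surface. In the retina, PlexinD1 receives Sema3E made by neurons and restrains tip cells, UNC5B marks arteries and tip cells, Robo1 and Robo4 receive or modulate Slit2 signals, and ephrin-B2 on arteries faces EphB4 on veins. Sema3G is a secreted semaphorin of arterial endothelium, and netrin-4 is a matrix-bound relative of the netrins.

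Where 3 values are listed together without names, their order is WT, Tspan12 KO, Ctnnb1 cKO. The 3 libraries kept 8989 WT, 12732 Tspan12 KO and 8451 Ctnnb1 cKO cells, and their tables held 92684519, 137114957 and 37008362 UMIs over all barcodes (unique molecular identifiers, 1 per captured transcript). ECs numbered 537, 277 and 2704, with a median of 15792, 15419 and 3352.5 UMIs per cell. Neural cells of named classes numbered 4282, 6896 and 735. Between 27.0% and 42.5% of cells lay in clusters that were not named, and clustering of the 3 libraries together named no cluster as horizontal, ganglion or Müller and no EC subcluster as venous. Most WT ECs (511) were in a cluster led by Slc38a5 and Vwa1, and most Ctnnb1 cKO ECs (2099) in another led by Hmcn1 and Palmd, so the endothelial class was filled by different clusters in these libraries. Summed markers of ECs stood at 8105, 7500 and 6754 CPM (counts per 1000000 UMIs) in ECs, against 214, 169 and 399 CPM in neural cells. Ctnnb1 was at 523, 614 and 444 CPM and Tspan12 at 95.9, 84.3 and 40.1 CPM in ECs. These 3′ tags need not lie in the deleted exons, and so check neither label. Library pairs shared 21 to 37 cell barcodes.

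Among the 10 genes, 6 were at least 2-fold higher in WT ECs than in WT neural cells, where 16.1% of 15896 genes were. The count was 7 in the Tspan12 KO library (background 14.7% of 16298) and 6 in the Ctnnb1 cKO library (background 17.2% of 12436). Robo4, Plxnd1, Ephb4, Sema3g, Unc5b and Efnb2 were in this group in all 3 libraries. Sema3e, Ntn4 and Slit2 were higher in neural cells in all 3, and Robo1 differed between libraries.

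The receptor Robo4, which stabilises vessels, was the most EC-restricted of the 10 by this ratio. EC Robo4 stood at 97.4, 110 and 120 CPM, and neural Robo4 at 1.58, 0.469 and 4.50 CPM. The ratio of ECs to neural cells was 61.6-fold in WT, and ECs held 92.2% of all Robo4 UMIs of that library. Plxnd1, the receptor for Sema3E, was at 289, 382 and 257 CPM in ECs and 8.71, 7.71 and 14.3 CPM in neural cells. Plxnd1 was also found in macrophage or monocyte-like cells, at 131 CPM (95% interval 109 to 156, 301 cells) in the Ctnnb1 cKO library, where microglia-like cells were at 24.6 CPM. In the Tspan12 KO library 22 macrophage or monocyte-like cells were at 29.0 CPM.

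Unc5b, a netrin receptor, was 12.6-fold, 15.4-fold and 18.8-fold higher in ECs than in neural cells. Ephb4, the receptor of ephrin-B2, was 29.4-fold, 26.2-fold and 13.8-fold higher, and the secreted ligand Sema3g 28.5-fold, 55.6-fold and 20.3-fold higher. Mural-like cells, the other vascular class, carried these genes too. In the 63 mural-like cells of the Tspan12 KO library Plxnd1 stood at 281 CPM and Ephb4 at 43.6 CPM, where summed EC markers were at 4923 CPM, against 7500 CPM in ECs. The part of EC transcripts in those values was not tested.

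Efnb2, the transmembrane ligand ephrin-B2, was shared between vessels and neural cells. In WT it was highest in retinal progenitor-like cells at 132 CPM, followed by amacrine-like cells at 120 CPM and ECs at 110 CPM, and the intervals of neighbouring values in that order overlapped. A cluster of 1056 WT cells that was not named, led by Hes5 and Slc1a3, stood at 130 CPM. In the Ctnnb1 cKO library ECs were highest at 86.7 CPM and progenitor-like cells were at 24.0 CPM, a log2 ratio to WT progenitor-like cells of -2.46 (95% interval -3.78 to -1.40). Amacrine-like Efnb2 was 120, 88.0 and 47.5 CPM.

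Robo1, the Slit receptor best known from axons, was highest, among classes of at least 50 cells, in neurogenic precursor-like cells in every library, at 718, 701 and 717 CPM. Amacrine-like cells were next at 562, 535 and 184 CPM, and ECs were at 142, 255 and 136 CPM. EC Robo1 was 2.06-fold above neural Robo1 in the Tspan12 KO library, 1.55-fold below it in WT, and level with it in Ctnnb1 cKO (log2 ratio -0.04, 95% interval -0.18 to 0.11). Pooled neural Robo1 was 219, 124 and 140 CPM. Within classes, Tspan12 KO to WT log2 ratios were -0.03 in precursor-like, -0.07 in amacrine-like, -0.05 in progenitor-like and -0.15 in bipolar-like cells. They were -0.28 in rod-like and -0.86 in cone-like cells. The mix of neural classes differed between libraries (a bipolar-like cluster held 180 WT and 1359 Tspan12 KO cells). Its part in these ratios was not tested.

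The Robo ligand gene Slit2 was at 368 and 341 CPM in amacrine-like cells of the WT and Tspan12 KO libraries, and at 105 CPM in those of Ctnnb1 cKO. Bipolar-like cells were at 104, 90.3 and 74.9 CPM. In Ctnnb1 cKO the highest class was pigment epithelium-like, at 300 CPM in 94 cells, and 49 such cells of the Tspan12 KO library were at 446 CPM. Ntn4 was at 37.9 CPM in amacrine-like and 37.4 CPM in neurogenic precursor-like WT cells, with overlapping intervals, and at 1.62 CPM in WT ECs. Sema3e was highest in the Hes5-led unnamed cluster of the WT library at 37.8 CPM, then in neurogenic precursor-like cells at 29.5 CPM. Sema3e in Tspan12 KO precursor-like and progenitor-like cells was at 38.6 and 36.0 CPM. ECs gave 6, 1 and 2 Sema3e UMIs, so that PlexinD1's ligand was near or below the limit of 3 counts there. In the Tspan12 KO library 1359 of the 1982 bipolar-like cells were in a cluster with a median of 26420 UMIs over the 3 libraries, above every other cluster, and mixed droplets in it were not tested for.

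**Figure D1:**
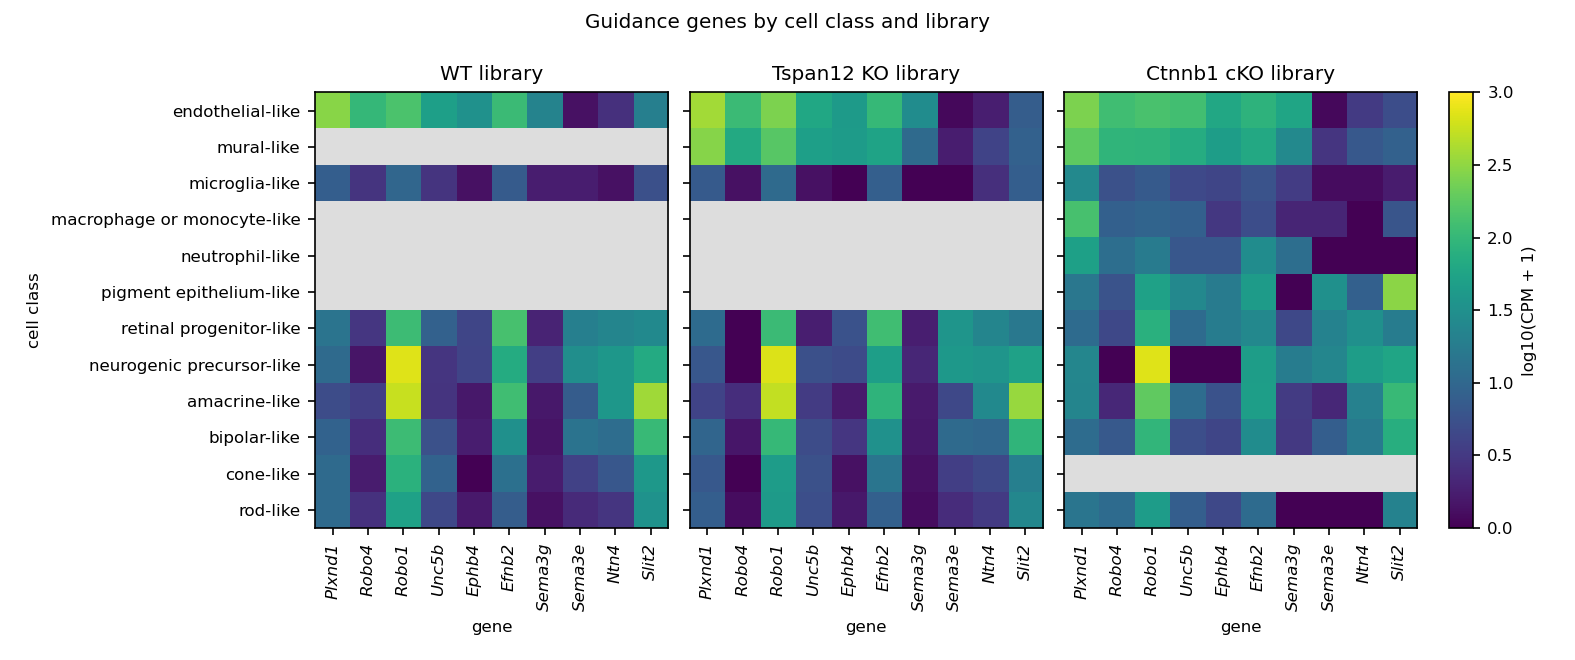
Level of each gene as log10(CPM + 1) in cell classes (rows) of the 3 libraries (panels), with grey for classes under 50 cells and unnamed clusters left out. Plxnd1, Robo4, Unc5b, Ephb4 and Sema3g stood out in the endothelial-like row against the neural rows, and Robo1 and Efnb2 were bright in both. The mural-like row, grey in WT with 13 cells, carried the former genes too. Slit2 was brightest in amacrine-like cells of WT and Tspan12 KO and in pigment epithelium-like cells of Ctnnb1 cKO. Robo1 was brightest in neurogenic precursor-like and amacrine-like cells.

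The comparison of knockout with WT ECs used summed UMIs over all ECs of a library. A gene needed 50 UMIs over the 3 libraries, which 9 of the 10 genes passed and Sema3e did not. In Tspan12 KO ECs none of the 9 was at least 2-fold higher than in WT (background 2.60% of 13215 genes) and 2 were at least 2-fold lower (background 5.20%). In Ctnnb1 cKO ECs 2 of 9 were at least 2-fold higher (background 8.48%) and 1 of 9 at least 2-fold lower (background 12.9%). The median log2 ratio of the 9 genes was 0.31 in Tspan12 KO and 0.30 in Ctnnb1 cKO, beside 0.01 and -0.13 over all genes. Both comparisons used the same WT library.

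Sema3g and Unc5b were the genes higher in Ctnnb1 cKO ECs. EC Sema3g was 20.7, 28.1 and 57.1 CPM. Against WT, its log2 ratio was 0.44 in Tspan12 KO (95% interval 0.17 to 0.71) and 1.46 in Ctnnb1 cKO (1.28 to 1.66). EC Unc5b was 48.8, 60.5 and 121 CPM, a log2 ratio of 0.31 in Tspan12 KO (0.13 to 0.49) and of 1.31 in Ctnnb1 cKO (1.19 to 1.44). The Ctnnb1 cKO interval did not meet the Tspan12 KO interval for either gene, and all intervals here cover counting error only. In cells thinned to 2000 UMIs each, a UMI of Unc5b was seen in 9.23%, 11.6% and 19.4% of ECs (520, 259 and 1884 cells), against 0.781%, 0.495% and 1.89% of rod-like cells. Before thinning the EC shares were 38.9%, 40.8% and 29.9%, at median depths that differ between libraries. ECs too shallow to be thinned were 17, 18 and 820. Without proliferative subclusters, Unc5b in Ctnnb1 cKO was at a log2 ratio of 0.83, under the 2-fold limit. Without the 68 Tspan12 KO ECs of 2 subclusters that held no WT cells, the Tspan12 KO ratios turned negative, to -0.060 for Sema3g and -0.19 for Unc5b.

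EC Ephb4 was 32.0, 42.0 and 61.9 CPM. The log2 ratio to WT was 0.39 in Tspan12 KO (0.17 to 0.61) and 0.95 in Ctnnb1 cKO (0.79 to 1.11), the latter just inside the 2-fold limit and, with TMM scaling (by trimmed means of gene ratios in place of total UMIs), past it at 1.09. Without the 570 Ctnnb1 cKO ECs of a cluster led by Eln and Mgp, in which Ephb4 was at 131 CPM, the Ctnnb1 cKO ratio was 0.48. Efnb2, its ligand, was at 110, 101 and 86.7 CPM, a log2 ratio of -0.13 in Tspan12 KO (-0.26 to 0.00) and of -0.34 in Ctnnb1 cKO (-0.45 to -0.23). Giving each cell the same weight put the ratio of Efnb2 at 0.36 in Tspan12 KO and 0.03 in Ctnnb1 cKO, and thinning put that of Tspan12 KO at 0.47.

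EC Robo1 was 142, 255 and 136 CPM. The log2 ratio was 0.85 (0.76 to 0.94) in Tspan12 KO, the largest of the ratios above 0 there, and -0.05 (-0.14 to 0.04) in Ctnnb1 cKO. Without proliferative subclusters the Tspan12 KO ratio was 1.23, past the 2-fold limit. Without the same 2 subclusters it was 0.30. For Plxnd1 the ratio was 0.40 in Tspan12 KO (0.33 to 0.48) and -0.17 in Ctnnb1 cKO (-0.23 to -0.10). For Robo4 it was 0.17 (0.04 to 0.30) and 0.30 (0.20 to 0.40), and both Robo4 ratios were below 0 when cells were thinned to equal depth.

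Slit2 was lower in ECs of both knockout libraries. EC Slit2 was 18.6, 6.63 and 4.06 CPM, from 299, 42 and 52 UMIs. The log2 ratio was -1.49 in Tspan12 KO (-1.99 to -1.02) and -2.19 in Ctnnb1 cKO (-2.65 to -1.76). Neural cells were at 104, 84.5 and 71.2 CPM, and microglia-like cells, which should lack the gene, at 4.37, 6.79 and 0.671 CPM. EC Slit2 in Tspan12 KO was thus at the microglial level of its own library. In cells thinned to 2000 UMIs Slit2 was seen in 2.31%, 2.70% and 0.796% of ECs and 1.24%, 1.93% and 0.224% of microglia-like cells, so the share did not show the order of the CPM between WT and Tspan12 KO. Before thinning the shares were 25.0%, 12.6% and 1.81% of ECs and 3.81%, 3.85% and 0.235% of microglia-like cells, whose median depths were 9667, 7451.5 and 3071.5 UMIs. With equal weight of cells, the Tspan12 KO ratio was -0.36. It was also within 2-fold when ECs were gated by markers or no doublets were removed. Amacrine-like cells gave more Slit2 UMIs than bipolar-like cells in WT (2005 against 1155). Bipolar-like cells gave more in Tspan12 KO (4659 against 1593) and in Ctnnb1 cKO (141 against 91). Summed markers of amacrine cells were at 20.6, 16.9 and 13.1 CPM in ECs, and those of rods at 172, 341 and 108 CPM. Those of bipolar cells are not given here. The part of free neural RNA in the Slit2 difference was not tested.

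Ntn4 gave 26, 5 and 29 EC UMIs. The Tspan12 KO log2 ratio of -1.03 passed the 2-fold limit on 5 UMIs, with a 95% interval of -2.77 to 0.37, and was 0.12 with equal weight of cells. The Ctnnb1 cKO ratio was 0.49 (-0.33 to 1.31).

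**Figure D2:**
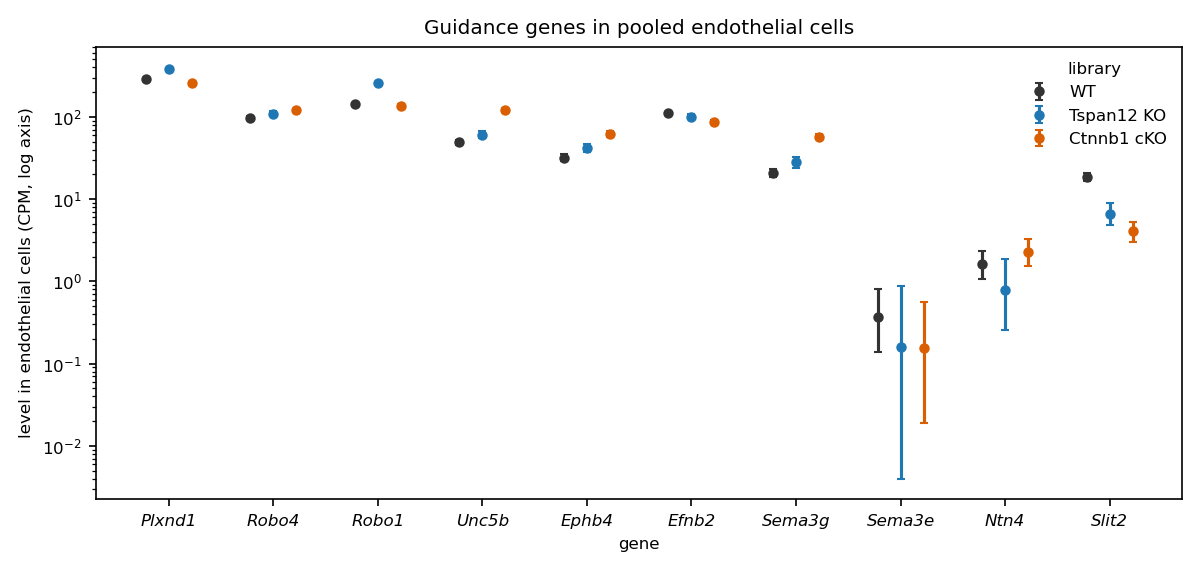
Level of each gene in pooled ECs of the 3 libraries in CPM on a log axis, with 95% Poisson intervals of the UMI count (1 library per group). Unc5b, Sema3g and Ephb4 were highest in Ctnnb1 cKO, Robo1 and Plxnd1 in Tspan12 KO, and Slit2 in WT.

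**Figure D3:**
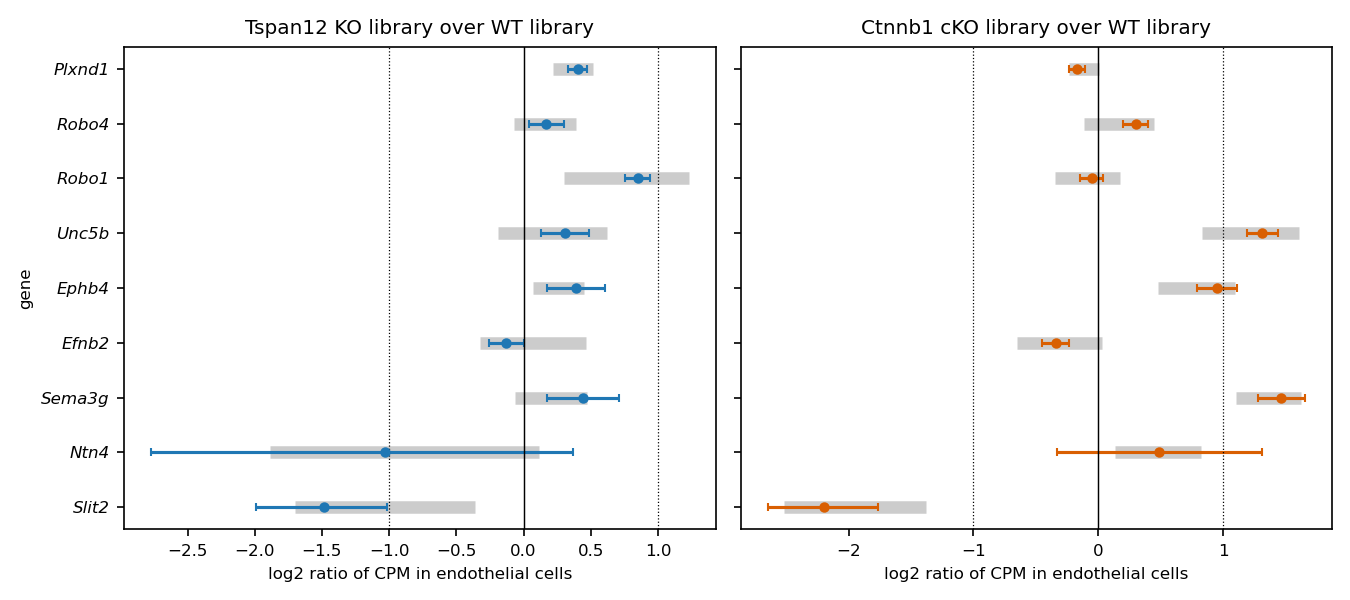
log2 ratio of each knockout library to WT in ECs for the 9 genes with at least 50 UMIs. Points carry 95% counting intervals, grey bars span the values under all settings tried, and dotted lines mark 2-fold; Sema3g, Unc5b and Slit2 passed 2-fold in Ctnnb1 cKO.

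Among EC subtypes, arterial-like cells carried the most Efnb2, Unc5b and Sema3g in WT. None of the 10 genes was used in clustering or among the subtype markers. When the ECs of all libraries were clustered together, subclusters followed library, and proliferative cells were the only named subtype with 20 cells of each library. No gene then had the same highest subtype in the 3 libraries. Subtypes are therefore given from clustering each library on its own, a choice of emphasis made after this was seen. It gave arterial-like cells (56 WT, 57 Tspan12 KO and 376 Ctnnb1 cKO), tip-like cells (19, 47 and 232) and proliferative cells (150, 95 and 178). With a minimum of 20 cells a subtype, 3 genes had the same highest subtype in all libraries (Unc5b, Sema3g and Ntn4, all arterial-like). ECs of unnamed subclusters were left out of every such ranking, and this clustering named no capillary or venous subtype. The 19 WT tip-like cells were too few, so WT was ranked over arterial-like and proliferative cells only. With each gene centred within each library, a setting added after seeing the data, the count was 6 (also Efnb2, arterial-like, and Plxnd1 and Robo1, capillary-like). The share over all genes was not computed for these counts, so they only describe the listed genes.

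In WT arterial-like cells Unc5b stood at 222 CPM (95% interval 200 to 247), a log2 ratio of 2.90 (2.69 to 3.10) to the other WT ECs. Sema3g there was at 94.1 CPM, a ratio of 2.88 (2.56 to 3.20), and Efnb2 at 364 CPM, a ratio of 2.13 (1.99 to 2.28). Ctnnb1 cKO arterial-like cells gave ratios of 2.46 for Unc5b, 2.45 for Sema3g and 1.80 for Efnb2. Those of Tspan12 KO were 0.80, 1.06 and 0.89, but its arterial-like cluster was less sharply marked, with 5 arterial markers and a mean marker log2 fold of 1.27, against 8 and 3.36 in WT. With library-centred clusters, 23 Tspan12 KO cells were arterial-like, and Efnb2 was at 449 CPM, Unc5b at 260 CPM and Sema3g at 107 CPM. Ntn4 was also arterial-like, at 9.03 CPM in WT (14 UMIs) and 10.3 CPM in Ctnnb1 cKO (11 UMIs). The pooled ECs of Tspan12 KO gave only 5 Ntn4 UMIs, so its highest subtype in that library rests on few counts. Plxnd1 was lower in WT arterial-like cells than in other WT ECs (168 CPM, log2 ratio -0.86, 95% interval -1.04 to -0.68).

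In clusters of each library alone, Plxnd1 was higher in tip-like cells than in other ECs of all 3 libraries, and Robo1 in those of WT and Tspan12 KO. The Tspan12 KO tip-like cluster rested on 3 markers with a mean log2 fold of 1.15, against 9 and 2.79 in WT and 6 and 1.93 in Ctnnb1 cKO. Tip-like Plxnd1 was 563, 542 and 388 CPM (19, 47 and 232 cells), and was above the other ECs of its library in each, with log2 ratios of 1.04, 0.59 and 0.67. Robo1 was at 331, 413 and 131 CPM, with ratios of 1.37, 0.86 and -0.12. The Ctnnb1 cKO tip-like cells thus had Plxnd1 but not Robo1 above their other ECs. With library-centred clusters, tip-like cells of WT held Plxnd1 at 239 CPM, below the capillary-like cells at 358 CPM. Robo1 there was 92.9, 132 and 81.2 CPM in tip-like and 196, 289 and 118 CPM in capillary-like cells, so the tip-like position of both genes depended on the clustering.

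In proliferative cells Unc5b was 15.6, 30.7 and 60.6 CPM, a log2 ratio to WT of 0.97 in Tspan12 KO (0.58 to 1.36) and of 1.96 in Ctnnb1 cKO (1.47 to 2.43). Robo1 in those cells was at 112, 151 and 20.2 CPM, a ratio of 0.43 in Tspan12 KO (0.27 to 0.58) and of -2.48 in Ctnnb1 cKO (-3.24 to -1.81). The Ctnnb1 cKO ratio of Unc5b was 1.68 in jointly clustered and 2.30 in library-centred proliferative cells, and that of Robo1 -0.52 and -0.23. Arterial-like Unc5b in Ctnnb1 cKO was at 499 CPM, a ratio of 1.17 (0.97 to 1.37) to WT, but 232 CPM and a ratio of 0.12 (-0.08 to 0.32) with library-centred clusters, whose arterial-like cells included 341 Ctnnb1 cKO cells of a second cluster. Arterial-like Sema3g gave ratios of 1.33 (1.03 to 1.64) and 0.68 (0.39 to 0.97). In joint clustering, with 20 WT and 592 Ctnnb1 cKO arterial-like cells, both genes were lower than in WT (Unc5b -0.68, -0.93 to -0.42; Sema3g -0.35, -0.70 to 0.01), so the arterial-like difference had no one direction across the clusterings. The 592 cells mixed unlike clusters: 321 of them, led by Eln and Mgp, had Unc5b at 44.3 and Sema3g at 88.0 CPM, and 264, led by Dkk2 and Bmx, had 576 and 235 CPM, beside 364 and 182 CPM in the 20 WT cells.

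Efnb2 and Ephb4, which mark the 2 sides of the vascular tree, were compared as a log2 ratio of UMIs within cells, without a correction for length. With each library clustered on its own, no venous subtype was named. Among the subtypes ranked, Ephb4 was highest in arterial-like cells of WT and Ctnnb1 cKO and in tip-like cells of Tspan12 KO. The log2 ratio of Efnb2 to Ephb4 is given first for these clusters. In WT this ratio was 3.19 (2.81 to 3.59) in arterial-like, 3.35 (2.49 to 4.34) in tip-like and 1.10 (0.85 to 1.34) in proliferative cells. In Ctnnb1 cKO it was 1.94 (1.56 to 2.32), 0.22 (-0.45 to 0.91) and -0.31 (-0.90 to 0.28), lower in each subtype. In Tspan12 KO it was 1.67, 1.47 and 0.98, of which the proliferative value overlapped that of WT. With library-centred clusters the arterial-like values of the libraries were 3.19, 3.31 and 0.47. The Ctnnb1 cKO value there pooled 282 cells of a cluster led by Dkk2 and Bmx with 341 of a cluster led by Eln and Mgp. In joint clustering, the Ctnnb1 cKO subclusters led by these genes were unlike. Efnb2 was at 282 CPM and Ephb4 at 84.7 CPM in the first, and at 128 and 157 CPM in the second.

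**Figure D4:**
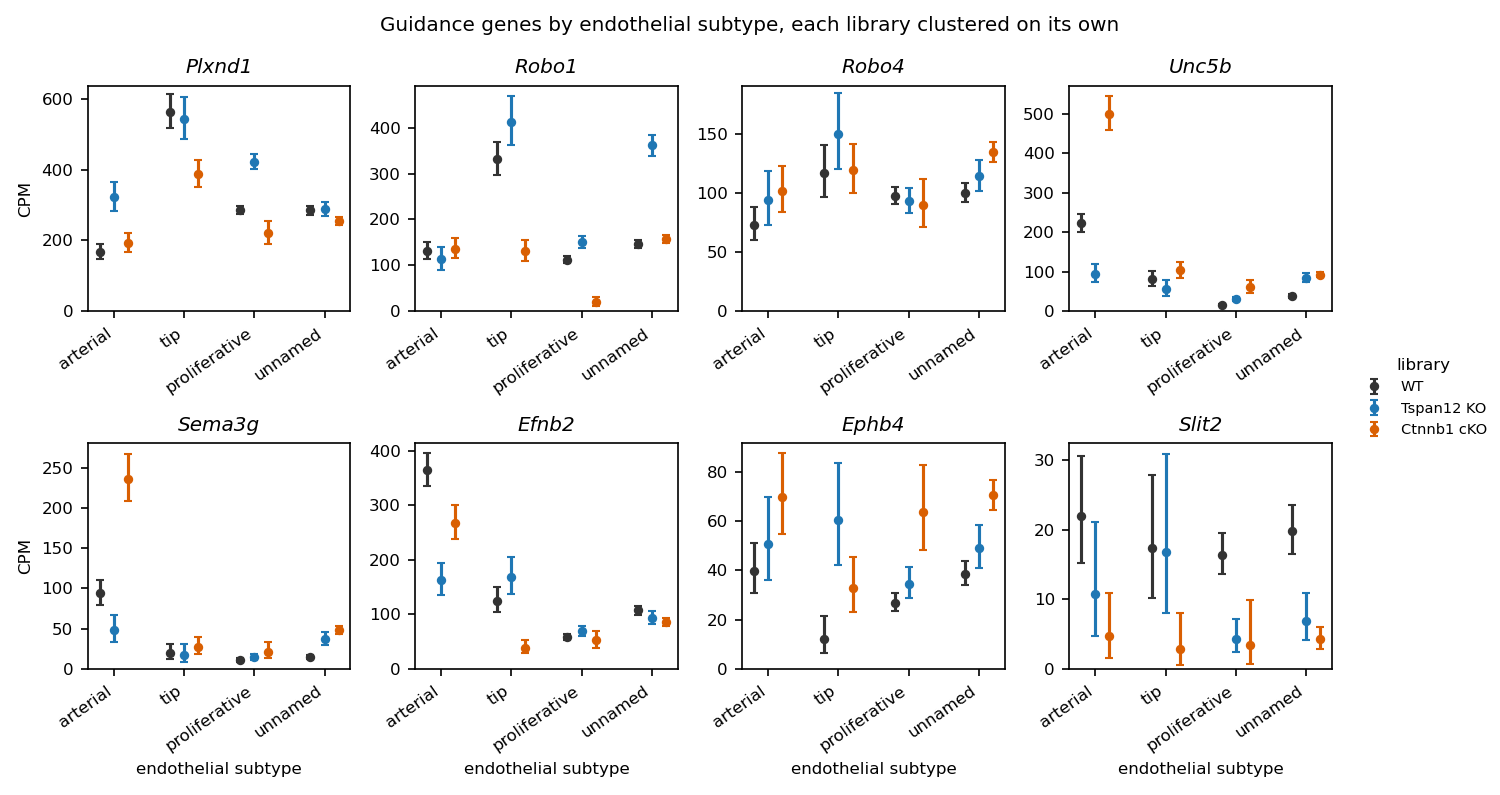
Level of 8 of the genes in CPM by EC subtype, with each library clustered on its own and 95% Poisson intervals on the UMI counts. Unc5b, Sema3g and Efnb2 were highest in arterial-like cells of WT and Ctnnb1 cKO, and Plxnd1 in tip-like cells of every library; tip-like cells of WT numbered 19.

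The 3 genes that passed 2-fold in Ctnnb1 cKO ECs, and Robo4, the most EC-restricted, are shown by their promoters, the 250 bases before the transcription start (RefSeq, GRCm38.p6, each in gene orientation), because TCF/LEF factors act with β-catenin. TCF/LEF words (CTTTGAT or CTTTGAA, and CTTTGTT or CTTTGTA) and ETS words (CCGGAAG or CAGGAAG), for factors that act in ECs, were searched on both strands. Of the 10 promoters, 1 held a TCF/LEF word (Sema3e, 119 bases before the start) and 2 an ETS word (Sema3e and Robo4), where 14.8% and 17.0% of 32851 promoters did. Capitals mark an ETS word, and Sema3g, Unc5b and Slit2 have none of either kind in this window.
Sema3g (chr14:31217623-31217872, plus strand): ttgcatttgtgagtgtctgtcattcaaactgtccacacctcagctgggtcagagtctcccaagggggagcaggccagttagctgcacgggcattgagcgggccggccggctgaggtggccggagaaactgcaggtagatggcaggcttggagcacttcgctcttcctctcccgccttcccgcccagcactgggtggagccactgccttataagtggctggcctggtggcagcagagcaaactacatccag
Unc5b (chr10:60831582-60831831, minus strand): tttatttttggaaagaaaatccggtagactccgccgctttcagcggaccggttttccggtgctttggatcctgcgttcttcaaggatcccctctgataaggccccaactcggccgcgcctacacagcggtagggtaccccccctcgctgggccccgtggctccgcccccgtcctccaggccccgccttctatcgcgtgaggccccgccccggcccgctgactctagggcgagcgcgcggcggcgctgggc
Slit2 (chr5:47982905-47983154, plus strand): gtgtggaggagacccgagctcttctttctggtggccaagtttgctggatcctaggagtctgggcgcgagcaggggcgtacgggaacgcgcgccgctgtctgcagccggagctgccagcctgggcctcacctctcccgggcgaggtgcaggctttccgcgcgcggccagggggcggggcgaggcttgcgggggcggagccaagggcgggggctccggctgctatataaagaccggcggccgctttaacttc
Robo4 (chr9:37401722-37401971, plus strand): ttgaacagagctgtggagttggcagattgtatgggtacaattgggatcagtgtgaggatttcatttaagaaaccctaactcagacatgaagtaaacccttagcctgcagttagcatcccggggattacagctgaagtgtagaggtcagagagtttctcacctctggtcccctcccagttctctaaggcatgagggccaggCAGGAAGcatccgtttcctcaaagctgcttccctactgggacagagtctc
The GC content of the promoters of Sema3g, Unc5b, Slit2 and Robo4 was 60.4%, 66.8%, 69.6% and 49.6%.

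The other 68 guidance genes of the 4 systems gave the setting for these values, and 49 of them had 50 EC UMIs. In Tspan12 KO ECs 1 was at least 2-fold higher and 5 at least 2-fold lower than in WT, where 2.60% and 5.20% of all genes were. In Ctnnb1 cKO ECs the counts were 5 and 18, beside 8.48% and 12.9% of all genes. In Ctnnb1 cKO the genes at least 2-fold higher were the plexins Plxna1 and Plxnb2, the semaphorins Sema3f and Sema7a, and Slit3. Sema7a stood at 26.7, 27.2 and 65.9 CPM in ECs. Slit3, a Slit2 relative, gave 17, 1 and 38 UMIs. Of the 18 genes at least 2-fold lower, 16 were higher in WT neural cells than in WT ECs, as Slit2 is. They included Dcc, the netrin receptor, at 44.6, 42.8 and 10.9 CPM in ECs and 1298 CPM in WT neural cells, and Robo2, at 39.6, 31.9 and 8.52 CPM in ECs and 887 CPM in WT neural cells. Of the 26 genes within 2-fold, 15 were higher in WT neural cells, and so were 3 of the 5 genes at least 2-fold higher. In Tspan12 KO the counts were 3 of the 5 lower genes, 30 of the 43 within 2-fold and the 1 higher gene. The share over all genes is not given here. The part of free neural RNA in these differences was not tested.

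Flrt2, a UNC5 ligand with more EC than neural transcripts, was also lower, at 85.6, 55.8 and 31.9 CPM in ECs, and Sema4a at 9.94, 1.11 and 0.547 CPM, from 160, 7 and 7 UMIs. Unc5a gave 62, 11 and 1 UMIs. Epha7 stood at 10.1, 4.74 and 1.88 CPM, Epha3 at 9.45, 8.85 and 1.41 CPM, Flrt3 at 2.49, 2.69 and 0.469 CPM, and Efna2 at 5.28, 1.90 and 1.02 CPM. In Tspan12 KO the gene at least 2-fold higher was Unc5d, on 26 UMIs. Among genes with the most EC UMIs of their kind, the semaphorin Sema6a was at 407, 387 and 364 CPM, the co-receptor Nrp1 at 222, 227 and 304 CPM, Efna1 at 98.2, 164 and 96.0 CPM, and Epha4 at 67.0, 97.1 and 48.1 CPM.

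**Figure D5:**
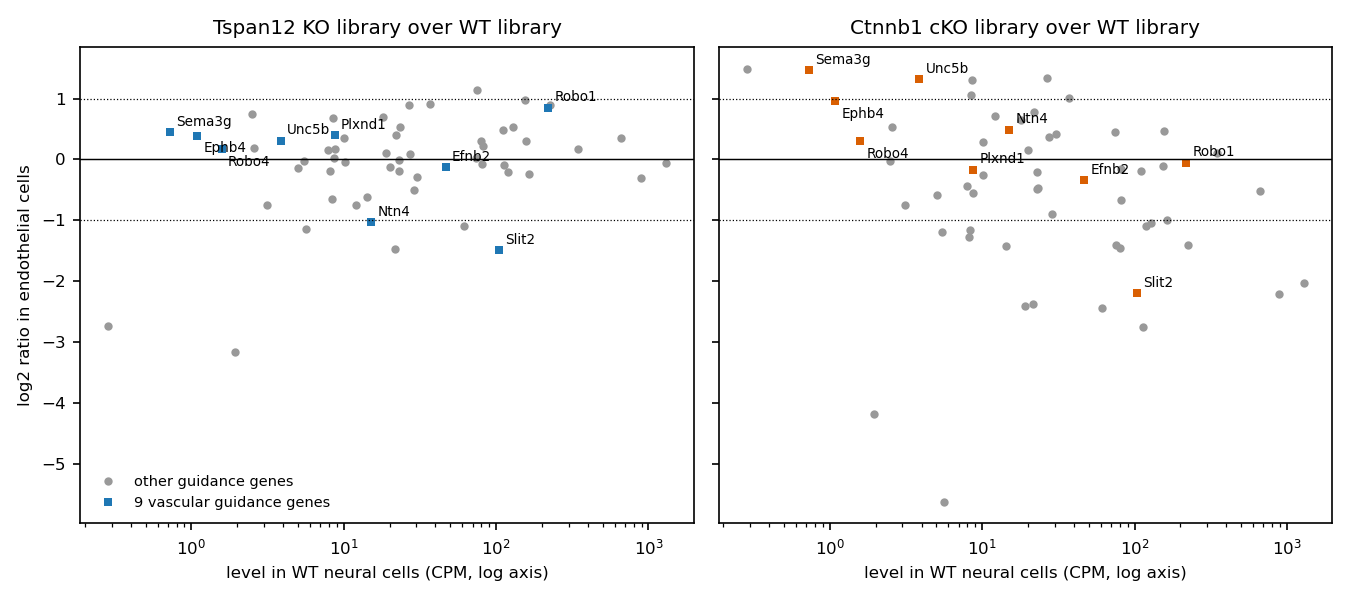
log2 ratio of each knockout library to WT in ECs against the level in WT neural cells (CPM, log axis) for 58 guidance genes with at least 50 EC UMIs; dotted lines mark 2-fold. Coloured squares are the 9 genes described here, of which Slit2 was low in both panels, and Sema3g and Unc5b were high in Ctnnb1 cKO.

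Over 42 points (class and library, at least 50 cells, 18 classes or clusters), the genes whose log2(CPM + 5) was most like each of the 10 were found by Pearson r, as a description. Points of 1 library share its depth and free RNA. Robo4 was most like Prnd (0.971), Abcb1a (0.962) and Piezo2 (0.962), and Ephb4 was most like Cdc42ep1 (0.947). Unc5b was most like Gpr4 (0.935), Sema3g most like Rnf125 (0.929), Plxnd1 most like Vwf (0.923) and Efnb2 most like Sema6a (0.915). Of the other genes, Ntn4 was most like Brinp2 (0.929), Slit2 most like Ralyl (0.925), Sema3e most like Adamts19 (0.889) and Robo1 most like Uchl1 (0.877).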

How the data were processed

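The authors deposited raw UMI counts per gene and cell barcode, made with Cell Ranger 8.0.1 per the file headers, and per the labels on GRCm39; the study's methods name another Cell Ranger version and build, and this was not resolved. Counts were summed over cells, so no count model was used. Cells entered with 250 or more genes, 500 or more UMIs and no more than 15% of UMIs from mitochondria, and Scrublet scores removed the top-ranked 0.8% per 1000 cells as doublets. Kept cells were scaled to 10000 UMIs, and 2000 variable genes without the guidance genes, 30 components and 20 neighbours gave Leiden clusters (scanpy 1.11.5, leidenalg 0.10.2). A cluster was named where at least 3 markers of a class had a log2 fold of at least 1 in 10% of cells and the mean marker fold was at least 0.5. Of 2 scoring rules tried after clusters were seen, the highest mean marker fold was kept; they differed for 1 cluster of 145 cells, the pigment epithelium-like one. After the EC subclusters were seen, the rule was changed to leave one unnamed where another cell class had more markers among its top 10 genes than its own subtype, which took 17 Tspan12 KO cells led by Rgs5 out of the arterial-like ones. CPM carry exact 95% Poisson intervals, shares exact Clopper-Pearson ones, and ratios exact conditional binomial ones, all for counting error only; 3 counts is the lower limit. Simulated data with known changes were used to check the ratio code. TMM used edgeR 4.0.16 in R 4.3.3. Members and lists were chosen with earlier results of these data known; the naming rule for other guidance genes took the 5 largest per knockout and direction and the gene of most EC UMIs of each system and role. Alternatives were doublet removal, clustering, gating by markers, scaling, thinning to 2000 UMIs, subclusters left out and UMI minima.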

Additional observations from a re-analysis of the deposited data

How the results depend on the processing

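Counts below are of genes at least 2-fold from WT in ECs. For the 9 genes described here, the count higher in Ctnnb1 cKO went from 2 to 1 and that in Tspan12 KO from 0 to 1 without proliferative subclusters. The count lower in Ctnnb1 cKO went from 1 to 0 after thinning, where Slit2 fell under the minimum of 50 UMIs and had no ratio (2.31% of WT and 0.796% of Ctnnb1 cKO ECs then had a Slit2 UMI). The count lower in Tspan12 KO (Slit2 and Ntn4) went from 2 to 1 with each library clustered alone, a pseudocount of 5 CPM or no proliferative subclusters, and to 0 with equal weight of cells, the marker gate, no doublets removed or thinning. After thinning Slit2 had no ratio there either. Genes with the same highest subtype went from 0 to 3 with each library alone and 6 when library-centred, with no share over all genes computed. Of the other guidance genes, the 5 higher in Ctnnb1 cKO became 2 with the gate or thinning, 8 at a minimum of 10 UMIs, 3 with no doublets removed, and 1 with the pseudocount, without the cluster led by Eln and Mgp or without library-centred subclusters of unlike share. The 1 higher in Tspan12 KO became 3 with libraries alone, equal weight, the lower minimum or no doublets removed, 2 without library-centred subclusters of unlike share, and 0 with the gate, the pseudocount or without the subcluster led by rod genes. The 18 lower in Ctnnb1 cKO became 6 with the pseudocount, 3 after thinning and 10 without proliferative cells. The 5 lower in Tspan12 KO became 8 with the gate, 9 at the lower minimum, 3 with no doublets removed or no proliferative cells, 1 with the pseudocount, 0 after thinning and 2 without subclusters of unlike share. Ratios that changed sign were Efnb2 in Ctnnb1 cKO (0.031, equal weight) and Tspan12 KO (0.36 with equal weight, 0.18 with the gate, 0.47 after thinning), Ntn4 in Tspan12 KO (0.12, equal weight), Robo1 in Ctnnb1 cKO (up to 0.18, under 6 settings), Plxnd1 in Ctnnb1 cKO (0.0027, no proliferative cells), Robo4 after thinning (-0.11 in Ctnnb1 cKO, -0.072 in Tspan12 KO), and Sema3g (-0.060) and Unc5b (-0.19) in Tspan12 KO without subclusters of unlike share. Other causes were not tested. Leaving out subclusters of unlike share left no Ctnnb1 cKO cells, so gave no value there. The settings on library-centred subclusters, the Eln and Mgp cluster and the rod-gene subcluster were chosen after seeing the data. No paired analysis was possible because there is 1 library per group. Low counts limit Ntn4, Sema3e and EC Slit2.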

Other observations

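Mural-like cells gave Robo4 at 64.6 CPM (63 cells) in the Tspan12 KO library and 90.5 CPM (90 cells) in the Ctnnb1 cKO library, with Unc5b at 48.1 and 71.6 CPM. Summed EC markers in the same cells were at 4923 and 4823 CPM, and the part of mixed droplets in those values was not tested. Neutrophil-like cells of Ctnnb1 cKO (97 cells) gave Plxnd1 at 49.7 CPM (95% interval 22.7 to 94.3). Astrocyte-like cells, which guide retinal vessels, had Robo1 at 607, 373 and 199 CPM in WT, Tspan12 KO and Ctnnb1 cKO, from 21, 47 and 21 cells.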
